A study of Homo sapiens with 4 samples.

Results

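The genes examined here are 8 transcription factor genes of the gut and endoderm, CDX1, CDX2, HNF4A, HNF4G, GATA4, GATA5, GATA6 and ISX. They were taken by name from 19974 protein-coding genes, and each was examined over its gene body and 100 kb to each side (hg38). The windows held 164 of 122856 regions in which at least 1 ATAC-seq library had a called interval. ATAC-seq uses the Tn5 transposase to cut and tag open DNA. The cells were HCT116, an established colorectal carcinoma line, in 2 groups that both carried a pSin lentiviral vector and were kept under puromycin at 5 μg/ml. In the FOXD2 group (2 libraries) the vector carried FOXD2, a gene for a transcription factor of the forkhead family, as its complete coding sequence, and in the control group (2 libraries) it was empty. Each library came from 50000 cells of a transduced, selected population, and the labels do not say whether libraries 1 and 2 of a group came from separate cultures. The question was which of these regulators lie in open chromatin in HCT116, at the gene start or at inner sites, and whether this differed between FOXD2 and control libraries.

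CDX1 and CDX2 encode caudal-type homeobox factors that set intestinal identity along the gut. HNF4A and HNF4G encode nuclear receptors that act with the CDX factors on enterocyte genes, and GATA4, GATA5 and GATA6 encode zinc finger factors of the endoderm, of which GATA6 is used along the whole intestine and GATA4 mainly in its proximal part. ISX encodes a homeobox factor restricted to the intestine that restrains vitamin A uptake. In ATAC-seq an active gene usually shows an open site at its start, and cell-type-specific genes often have further open sites inside or around them.

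The lists held 82739 and 64675 intervals in FOXD2 replicates 1 and 2, and 77752 and 72796 in control replicates 1 and 2. Read depth is unknown, and the shortest list, FOXD2 replicate 2, also covered the least sequence (31.3 Mb, against 34.9 to 39.5 Mb in the others). The deposited values of an interval are its fold over local background and its −log10 q, which belong to that library alone. The number of tags at the summit was recovered from the fold and p. In these bulk libraries, a site open in fewer cells and a site less open in each cell cannot be told apart. At FOXD2 itself an interval across the start was present in each library, with a −log10 q of 50.4 and 24.4 in FOXD2 replicates 1 and 2 and of 64.0 and 54.0 in control replicates 1 and 2. Farther inside the gene, where reads from the vector can also map, FOXD2 replicates 1 and 2 had an interval of 676 and 689 bp, control replicate 1 had one of 320 bp and control replicate 2 had no such interval. Of 8 colon epithelium markers, EPCAM, CDH1, KRT8, KRT18, KRT19 and CDX2 had an interval at the start in all 4 libraries. VIL1 had one in FOXD2 replicate 2 and control replicate 2, and CDH17 had none. The same count was 1 of 6 for leukocyte (SPI1), 4 of 6 for fibroblast (COL1A1, COL1A2, PDGFRA and TWIST1), 1 of 6 for endothelial (ESAM), 1 of 6 for liver (SERPINA1), 0 of 6 for stomach and 2 of 6 for heart markers (TNNT2 and ACTN2). CD3E was open at the start in controls only and CDH5 in FOXD2 libraries only. An interval at a start is not a measure of expression.

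An open start was present in all 4 libraries at 5 of the 8 genes, CDX1, CDX2, HNF4A, HNF4G and GATA6, where 66.0% of all protein-coding genes had one. GATA4 and GATA5 had none in any library, as did 23.3% of all genes. ISX had one in both controls and in neither FOXD2 library. A start was taken as open where an interval came within 1000 bp of it. RefSeq starts were at hand for CDX2, HNF4A, GATA6 and ISX. For CDX1, HNF4G, GATA4 and GATA5 both ends of the gene were used, since the tables used here give no strand for them. The same rule was used for all genes. A RefSeq start was at hand for 15812 of 19974, a larger share than among the members, so the measures are not fully alike. Exons, introns and UTRs were not placed for any gene. The number of genes open in every library was again 5 when any 1 of the 4 libraries was left out. It could not have changed, since leaving out a library cannot lower it and GATA4, GATA5 and ISX lacked an interval in both FOXD2 libraries.

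HNF4G (chromosome 8, 75407649 to 75566834) had the strongest and broadest of these starts. The interval across its lower-coordinate end had a −log10 q of 43.0 and 28.9 in FOXD2 replicates 1 and 2, and of 44.2 and 37.9 in control replicates 1 and 2. The summits held 80 and 59 tags in the FOXD2 libraries and 84 and 72 in the controls, so FOXD2 replicate 2 was lowest and the groups overlapped. The merged region ran from 75406946 to 75408609. Among the 13180 genes with an open start in all 4 libraries, HNF4G stood at percentiles 42.2 and 34.7 in the FOXD2 libraries and 33.9 and 31.0 in the controls.

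CDX2 (chromosome 13, 27960918 to 27969315, minus strand) had its start open across a region from 27967922 to 27969493. Its −log10 q was 24.3 and 18.0 in FOXD2 replicates 1 and 2, against 19.8 and 17.8 in the controls, with 59 and 47 summit tags in FOXD2 libraries and 56 and 50 in controls. Tag numbers overlapped between the groups. The start of CDX2 was weak among open starts, at percentiles 17.9 and 17.2 in FOXD2 libraries and 10.3 and 10.8 in controls. The starts of GATA6 and HNF4A were about as weak. GATA6 stood at 19.0 and 18.1 in FOXD2 libraries and 7.8 and 7.5 in controls. HNF4A stood at 11.5 and 8.5 in FOXD2 libraries and 8.4 and 11.5 in controls.

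CDX1 (chromosome 5, 150166778 to 150184558) had the weakest of the open starts. The interval just inside its lower-coordinate end, in a region from 150166821 to 150167432, had a −log10 q of 4.14 and 5.88 in FOXD2 replicates 1 and 2, and of 11.2 and 5.55 in control replicates 1 and 2. Its summits held 18 and 20 tags in FOXD2 libraries and 31 and 22 in controls. This put CDX1 at percentiles 0.197 and 2.10 of open starts in FOXD2 libraries, and at 3.77 and 0.835 in controls. With intervals of −log10 q of 5 or more only, FOXD2 replicate 1 lost it and 4 of the 8 genes were open in all libraries.

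GATA6 (chromosome 18, 22169589 to 22202528, plus strand) was open across its start from 22168931 to 22170539, a region that also covers the start of the antisense gene GATA6-AS1. The −log10 q there was 25.3 and 18.7 in FOXD2 replicates 1 and 2, against 16.7 and 13.6 in control replicates 1 and 2. Summit tags numbered 66 and 52 in FOXD2 libraries and 50 and 43 in controls, so both FOXD2 values lay above both control values.

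HNF4A (chromosome 20, 44355699 to 44434596, plus strand) has a pair of RefSeq starts that lie 45540 bp apart, known as the P2 promoter (upstream) and the P1 promoter (downstream), and only the upstream one was open. The region across it, 44355219 to 44356376, had a −log10 q of 17.9 and 11.1 in FOXD2 replicates 1 and 2, and of 17.4 and 18.6 in control replicates 1 and 2. Its summits held 31 and 24 tags in FOXD2 libraries and 32 tags in each control. FOXD2 replicate 2 was lowest, and the groups overlapped. At the downstream start, 44401239, the nearest interval lay 5674 and 5945 bp away in FOXD2 libraries and 5618 and 5827 bp away in controls. The downstream promoter is the main one of adult liver, and the upstream one is known from pancreas and gut. Normal colon was not examined here, so whether a closed downstream start is usual there cannot be told.

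ISX (chromosome 22, 35066158 to 35087387, plus strand) had intervals 610 and 828 bp inside its start in control replicates 1 and 2. Both were near the floor of their lists, with a −log10 q of 3.03 and 4.69 and 13 and 17 summit tags. They ran from 35066768 to 35067021 in control replicate 1 and from 35066986 to 35067185 in control replicate 2, so only their edges overlapped. The open start in each control rests on its own interval, but their count as 1 lost region rests on the merging rule. In FOXD2 replicate 1 the nearest interval was 1243 bp from the start, outside the gene, with 16 tags, and in FOXD2 replicate 2 it was 7507 bp away. Of all protein-coding genes, 0.866% had a start open in both controls only and 0.436% in both FOXD2 libraries only. No member was in the second class.

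**Figure D1:**
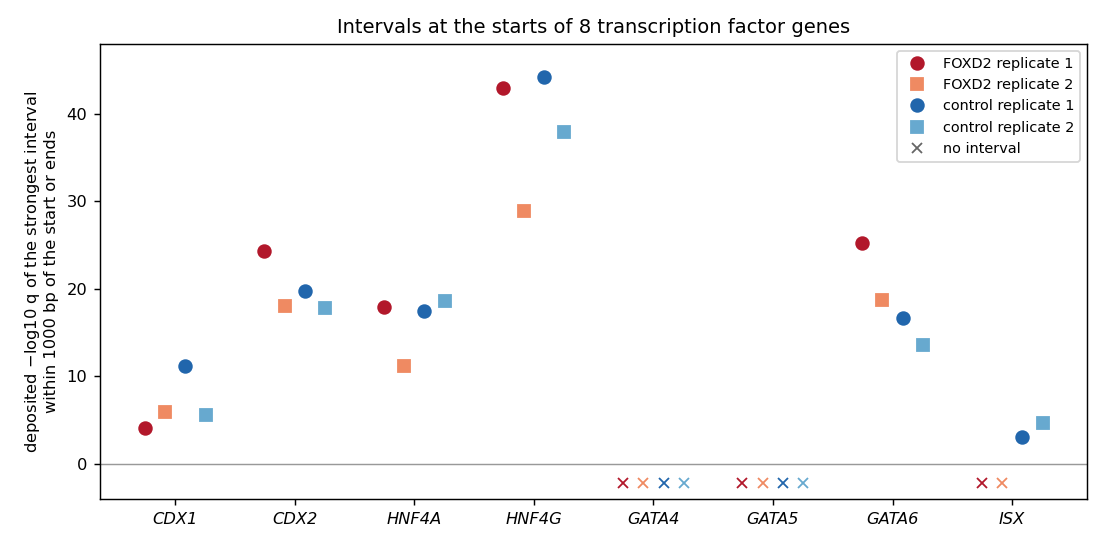
Strength of the strongest interval within 1000 bp of the start of each gene (either end for CDX1, HNF4G, GATA4 and GATA5), as the deposited −log10 q in each library. FOXD2 libraries are red and light orange, left of the controls in dark and light blue, and crosses below 0 mark libraries with no interval. HNF4G is highest at 28.9 to 44.2, CDX1 is low at 4.14 to 11.2, GATA4 and GATA5 have none, and at GATA6 both FOXD2 points lie above both controls.

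The DNA ahead of the starts is shown because the HNF4A starts, one open and the other closed, can then be read side by side with CDX2, GATA6 and ISX. The sequences are from RefSeq (GRCh38.p14), and the table used here was matched for 4 of the 8 genes; CDX1, HNF4G, GATA4 and GATA5 are not shown. Each sequence is the 250 bases upstream of a start, 5′ to 3′ on the strand of the gene, with matches to 4 motifs in capitals. The forkhead motif was TGTTTAC. The letters used for the GATA family were AGATAA, for the CDX factors TTTATG and for HNF4 CAAAGTCCA. All were read on both strands, and no match overlapped another. Other forms of these motifs were not searched.
CDX2 start, chr13:27969316-27969565, minus strand: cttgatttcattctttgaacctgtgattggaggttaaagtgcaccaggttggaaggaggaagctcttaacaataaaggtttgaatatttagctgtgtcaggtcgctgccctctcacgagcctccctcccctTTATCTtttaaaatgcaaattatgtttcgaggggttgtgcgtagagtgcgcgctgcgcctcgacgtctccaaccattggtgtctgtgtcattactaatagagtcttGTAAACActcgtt
GATA6 start, chr18:22169339-22169588, plus strand: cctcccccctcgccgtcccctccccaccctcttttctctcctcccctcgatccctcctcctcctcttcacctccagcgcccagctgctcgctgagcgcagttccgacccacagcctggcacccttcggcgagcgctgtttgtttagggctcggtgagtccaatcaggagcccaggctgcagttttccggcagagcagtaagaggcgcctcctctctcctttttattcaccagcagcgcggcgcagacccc
HNF4A upstream start, chr20:44355449-44355698, plus strand: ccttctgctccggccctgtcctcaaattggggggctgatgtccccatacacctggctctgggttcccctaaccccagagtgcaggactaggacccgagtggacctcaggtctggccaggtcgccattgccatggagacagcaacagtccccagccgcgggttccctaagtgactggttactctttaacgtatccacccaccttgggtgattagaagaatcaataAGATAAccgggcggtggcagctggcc
HNF4A downstream start, chr20:44400989-44401238, plus strand: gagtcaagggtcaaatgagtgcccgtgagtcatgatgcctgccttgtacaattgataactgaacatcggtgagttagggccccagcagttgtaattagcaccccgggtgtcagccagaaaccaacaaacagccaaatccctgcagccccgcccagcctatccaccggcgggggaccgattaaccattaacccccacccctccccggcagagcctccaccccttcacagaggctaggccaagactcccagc
ISX start, chr22:35065908-35066157, plus strand: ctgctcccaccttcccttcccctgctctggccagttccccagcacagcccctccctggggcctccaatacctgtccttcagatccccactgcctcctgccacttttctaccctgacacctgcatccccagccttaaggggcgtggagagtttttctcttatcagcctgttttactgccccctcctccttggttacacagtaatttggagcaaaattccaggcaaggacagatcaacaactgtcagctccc
The CDX2 sequence has a forkhead match (GTAAACA, the other strand) that begins 13 bp ahead of the start and a GATA match (TTATCT, the other strand) 119 bp ahead. HNF4A has a GATA match 26 bp ahead of its upstream start and no match to the 4 searched motifs ahead of its downstream start. GATA6 and ISX had none. TGATAA, which differs from AGATAA in its first letter, was not searched. It lies in the downstream HNF4A sequence and, on the other strand, in that of ISX. The HNF4A starts thus differ in AGATAA and not in every form of the GATA motif. Of 22006 such windows of protein-coding genes, 2.45% held the forkhead letters, 7.1% the GATA letters, 7.38% the CDX letters and 0.309% the HNF4 letters. The open intervals covered all 250 bases at GATA6 and at the upstream HNF4A start in each of the 4 libraries. At CDX2 they covered 142 and 178 of them in FOXD2 replicates 1 and 2, and 101 and 123 in control replicates 1 and 2, so the forkhead match lay inside the interval in each library. At the downstream HNF4A start and at ISX they covered 0 bases. A match describes letters and does not show binding.

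Inner sites were read next, since a gene can be open inside without an open start. The member with the most regions inside it was GATA4 (chromosome 8, 11676935 to 11760002). Its RefSeq start was not at hand, so a start inside the gene cannot be told from an inner site here. No interval came within 1000 bp of either of its ends, yet 10 regions lay inside it, of which 4 were in all 4 libraries. The strongest, 11736051 to 11736750, had a −log10 q of 64.0 and 37.8 in FOXD2 replicates 1 and 2, against 100.0 and 59.6 in control replicates 1 and 2. Its summits held 74 and 49 tags in FOXD2 libraries and 103 and 65 in controls, and the groups overlapped. The site nearest to the lower-coordinate end lay 1654 bp outside it, at 11674920 to 11675281, with 21 and 17 tags in FOXD2 libraries and 28 and 19 in controls. A second inner region, 11746323 to 11747068, had 40 and 37 tags in FOXD2 libraries and 30 and 42 in controls.

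HNF4A held 6 regions in the gene, its upstream start included, of which 3 were in all 4 libraries. The strongest was not at a start but at 44388501 to 44388963, between the pair of starts, with a −log10 q of 56.8 and 35.0 in FOXD2 replicates 1 and 2 and of 58.8 and 40.9 in the controls. It held 82 and 58 tags in FOXD2 libraries, and 83 and 65 in controls. It also overlaps HNF4A-AS1, an antisense gene, from which it cannot be told apart. The other inner site open in every library, at 44406857 to 44407858 and past the downstream start, held 39 and 35 tags in FOXD2 libraries and 47 and 38 in controls.

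HNF4G, GATA5 and ISX had few inner sites, and none in all 4 libraries apart from the open end of HNF4G. HNF4G had 1 inner site apart from its end, at 75483384 to 75483697. There FOXD2 replicate 1 had no interval and FOXD2 replicate 2 had a −log10 q of 8.36 with 16 tags, while control replicates 1 and 2 had 22.4 and 17.4 with 28 and 24 tags. Both controls were above the FOXD2 libraries. GATA5 (chromosome 20, 62463497 to 62475995) had 2 inner regions, one in FOXD2 replicate 1 and control replicate 1 and the other in control replicate 2 alone, and none of its shared regions lay in the gene.

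CDX1 and CDX2 each had 1 further site in the gene that every library called. That of CDX1, 150175567 to 150176190, had a −log10 q of 18.1 and 9.94 in FOXD2 replicates 1 and 2 and of 10.2 and 17.7 in control replicates 1 and 2, so replicates differed more than groups. That of CDX2, 27960373 to 27961194, crossed the far end of the gene, with 25 and 16 tags in FOXD2 libraries and 16 and 19 in controls. GATA6 had 1, at 22176813 to 22177355, with 17 and 19 tags in FOXD2 libraries and 19 and 18 in controls. ISX had none, and beyond its start only 1 inner interval in control replicate 1.

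Starts were seen more often in every library than inner sites and flanks. Of 7 regions at a start or end, 5 were in all 4 libraries (71.4%), as were 9 of 23 other regions in the bodies (39.1%) and 35 of 134 in the flanks (26.1%). Over the whole genome, with each region placed against all genes, the shares were 72.6% at starts, 23.6% elsewhere in gene bodies and 27.8% outside. The flanks here still held starts and bodies of neighbours, so 26.1% and 27.8% belong to unlike sets. Away from the starts or ends of coding neighbours, 23 of 113 flank regions were in all 4 libraries (20.4%). In all, 49 of the 164 regions were in all 4 libraries, or 29.9% where the genome had 32.5%, and 71 were in 1 library, or 43.3% where the genome had 40.8%. Of those 71, FOXD2 replicates 1 and 2 had 17 and 12 and control replicates 1 and 2 had 29 and 13. Just inside the limit of the windows, from 90 to 100 kb away, lay 13 regions, of which 4 were in all libraries. Just outside, from 100 to 110 kb, lay 21, of which 2 were.

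**Figure D2:**
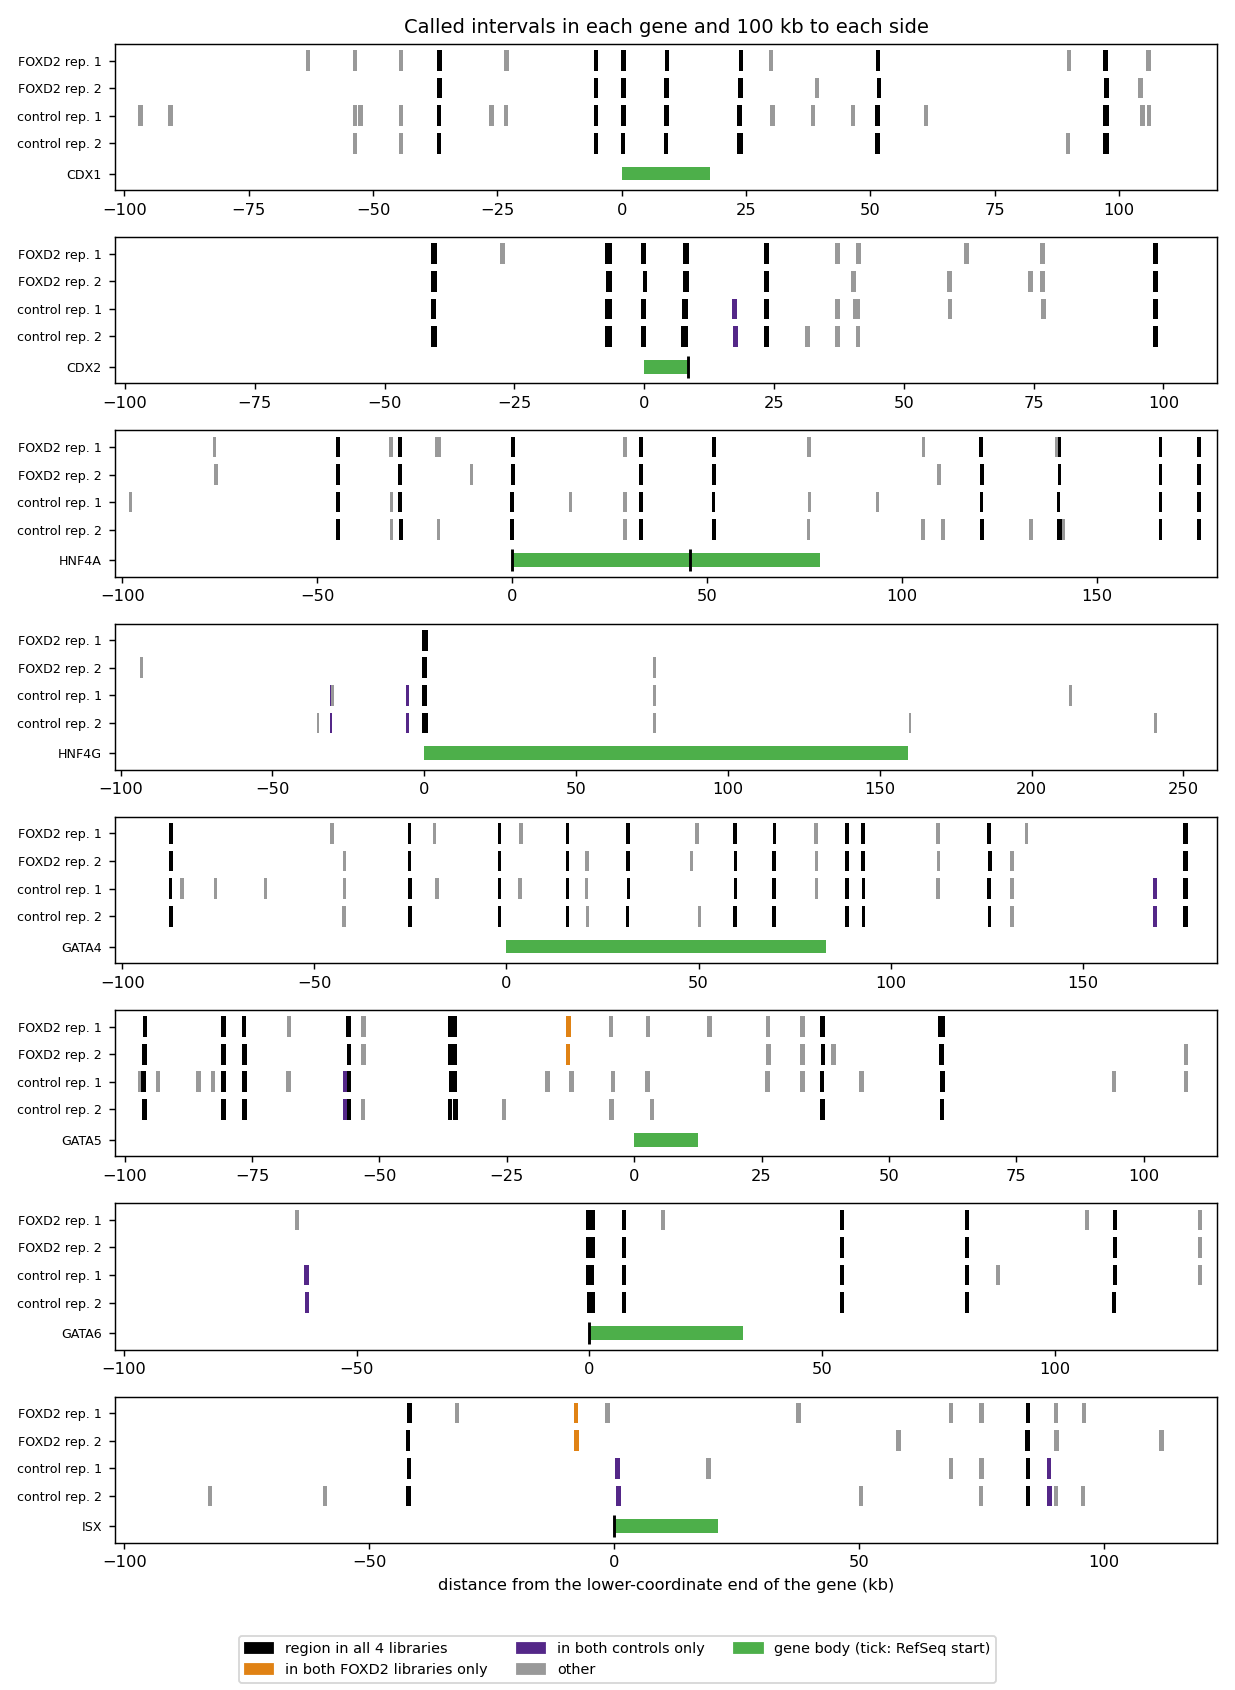
Called intervals in each of the 8 genes and 100 kb to each side, by distance in kb from the lower-coordinate end of the gene, with the FOXD2 libraries above the controls. Black marks regions in all 4 libraries, orange those in both FOXD2 libraries only, purple those in both controls only and grey the rest; the green bar is the gene body with its RefSeq starts as ticks. Intervals are drawn at least 0.9 kb wide. Regions in all 4 libraries number 11 around GATA4 and 1 around HNF4G.

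The density of open regions differed widely among the genes. GATA5 had 30 regions in its window (14.1 per 100 kb, at the 88.5 percentile of all protein-coding windows), and CDX1, GATA4, HNF4A, ISX and CDX2 had 24, 28, 26, 18 and 17 regions (8.14 to 11.0 per 100 kb). GATA6 had 11 (4.72 per 100 kb) and HNF4G had 10 (2.78 per 100 kb, at the 14.5 percentile). The median of the 8 genes was 8.74 per 100 kb, against 7.01 over all genes. Many flank regions belong to neighbours, as 53 of the 134 overlapped another protein-coding gene and 21 came within 1000 bp of such a gene's start or end. Of these 21, 12 were in all 4 libraries, at SLC6A7, PDX1, FITM2, TTPAL, SERINC3, PKIG, NEIL2, LAMA5, RPS21, CABLES2 and RBBP8NL. The strongest region around GATA4 was inside FDFT1, a squalene synthesis gene, with a −log10 q of 97.4 and 89.2 in FOXD2 replicates 1 and 2 and of 137 and 126 in the controls.

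The neighbour of CDX2 is itself a gut factor. PDX1, a homeobox gene of pancreas and duodenum, was open at its start, at 27919802 to 27921008, with 71 and 43 tags in FOXD2 replicates 1 and 2 and 78 and 57 in control replicates 1 and 2. FOXD2 replicate 2 was lowest and the groups overlapped. A further site in every library lay 6134 bp past the lower-coordinate end of CDX2, in the non-coding gene LINC00543, with a −log10 q of 41.3 and 31.9 in FOXD2 libraries and 62.3 and 44.4 in controls. It was stronger than the CDX2 start in each library. A site 4749 bp outside the lower-coordinate end of CDX1 was likewise stronger than the CDX1 start, with 71 tags in each FOXD2 library and 93 and 89 in the controls. There both FOXD2 tag counts lay below both control counts, but its rank did not separate the groups.

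Few regions differed between the groups by presence. Among the 164 regions, 2 were in both FOXD2 libraries and neither control (gained, 1.22%, genome 3.89%), and 8 were in both controls and neither FOXD2 library (lost, 4.88%, genome 3.87%). The lost share was near that of the genome. Of the 8 windows, 2 held a gained region, where 40.9% of all protein-coding windows did, and 6 held a lost one, where 45.7% did. The medians per window were 0 gained and 1 lost region for the 8 genes and 0 of each over all genes. With 2 libraries a group, 6 arrangements of the labels exist and the smallest two-sided exact permutation p is 0.333, so no permutation test between the groups could pass 0.05.

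The lost regions were mostly weak. The 2 strongest lay at ISX and HNF4G. That at ISX, 35154923 to 35155190, lay 67536 bp past the higher-coordinate end in LINC01399, with a −log10 q of 13.9 and 21.2 and 30 and 39 tags in control replicates 1 and 2. At HNF4G, the region from 75402101 to 75402311, 5338 bp outside the lower-coordinate end, had a −log10 q of 11.0 in each control, with 25 and 23 tags. The second of HNF4G, 75376715 to 75377145, had 9 and 11 tags in the controls, next to the floor of what was called. The rest were at the ISX start, at CDX2 (27978088 to 27978609, inside URAD), at GATA4 (11845576 to 11845866, inside CTSB), at GATA5 (62406680 to 62406985, inside CABLES2) and at GATA6 (22108624 to 22109018). Their −log10 q ran from 3.03 to 7.24 in the controls. The one inside CABLES2 sat on a local background of 18.4 and 17.8 tags, beside a region that all 4 libraries called.

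Both gained regions were weak as well. That of GATA5, 62450421 to 62450714, lay 12783 bp outside the lower-coordinate end, with a −log10 q of 5.52 and 5.35 and 26 and 24 tags in FOXD2 replicates 1 and 2. That of ISX, 35058255 to 35058651, lay 7507 bp ahead of the start, with a −log10 q of 4.14 and 4.06 and 11 tags in each FOXD2 library. Leaving out a library loosens both definitions. With FOXD2 replicate 1 left out there were 14 gained and 16 lost of 147 regions, and with FOXD2 replicate 2 left out 20 gained and 12 lost of 153. With control replicate 1 left out there were 8 gained and 21 lost of 136, and with control replicate 2 left out 4 gained and 37 lost of 151. By count, gained exceeded lost regions only with FOXD2 replicate 2 left out, where they did so over the genome too. There the gained share was still below that of the genome and the lost share above it. Over the genome 12% of regions were gained and 10.3% lost with FOXD2 replicate 1 left out, and 19.5% and 5.93% with FOXD2 replicate 2 left out. The genome shares were 6.91% gained and 14.4% lost with control replicate 1 left out, and 6.18% and 17% with control replicate 2 left out.

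Over the 8 windows together the libraries held 99 and 78 intervals in FOXD2 replicates 1 and 2, and 113 and 93 in control replicates 1 and 2. The means were 88.5 with FOXD2 and 103 in controls, a difference of −14.5 (exact permutation test, two-sided, p = 0.667), which ran from −25 to −4 when 1 library was left out. As a share of each list they were 0.120% (95% Clopper-Pearson interval 0.0973 to 0.146) and 0.121% (0.0953 to 0.150) in FOXD2 libraries, and 0.145% (0.120 to 0.175) and 0.128% (0.103 to 0.156) in controls. Both FOXD2 shares lay below both control shares (exact permutation test, two-sided, p = 0.333, the smallest possible), and the intervals, which cover counting error only, overlapped. The covered sequence was 47.8 and 38.7 kb in FOXD2 libraries and 52.8 and 43.6 kb in controls.

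The number of intervals in a window was then compared between the groups. How many of all protein-coding windows separate the groups was not counted, so a member that does cannot be called unusual. By number, only the HNF4G window among the 8 did so. It held 2 and 3 intervals in FOXD2 replicates 1 and 2, and 6 and 8 in control replicates 1 and 2 (exact permutation test, two-sided, p = 0.333, the smallest possible). The open start was called as 2 intervals and 1 interval in FOXD2 replicates 1 and 2, and as 1 and 2 in control replicates 1 and 2. Elsewhere in the window there were 0 and 2 intervals in the FOXD2 libraries and 5 and 6 in the controls. CDX1 held 14 and 9 in FOXD2 libraries and 20 and 11 in controls, and GATA6 held 10 and 7 in FOXD2 libraries and 8 and 7 in controls. As a share of each list, the GATA6 window also separated the groups, with FOXD2 higher (exact permutation test, two-sided, p = 0.333, the smallest possible). The shares were 0.0121% and 0.0108% in FOXD2 replicates 1 and 2, and 0.0103% and 0.00962% in control replicates 1 and 2.

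**Figure D3:**
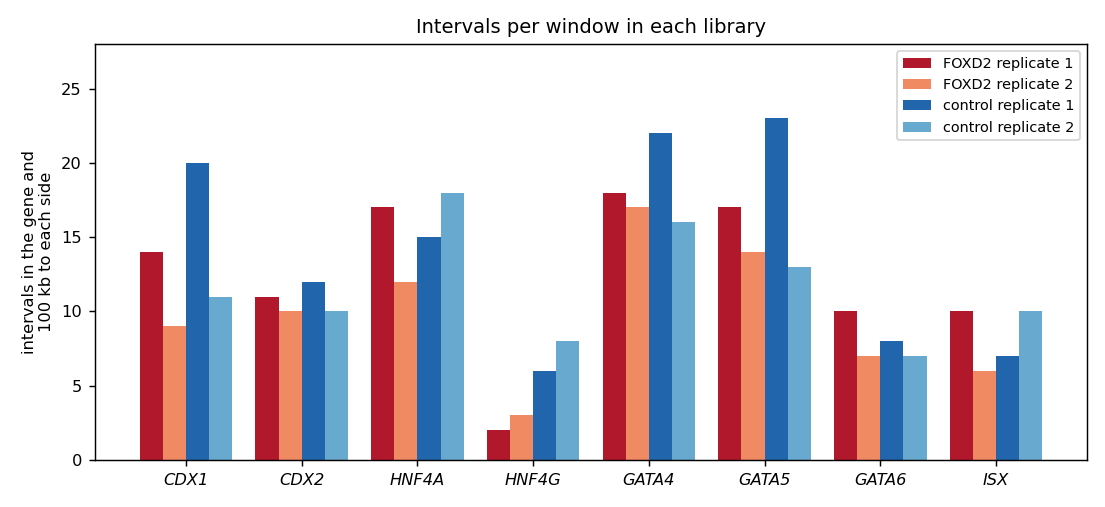
Number of called intervals in each gene and 100 kb to each side, as bars for FOXD2 replicates 1 and 2 (red and light orange, left) and control replicates 1 and 2 (dark and light blue, right). HNF4G shows 2 and 3 intervals with FOXD2 and 6 and 8 in controls; in the other windows the bars of the groups overlap.

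Regions in all 4 libraries were then compared by rank. The 39933 such regions of the genome were ranked by −log10 q in each library, over the same set in all 4, so that list length did not move the rank, and the percentile is given (100 is the strongest). Of the 49 in the 8 windows, 12 had both FOXD2 ranks above both control ranks (24.5%, genome 19.0%) and 4 had them below (8.16%, genome 19.6%). The median difference of FOXD2 mean less control mean was 1.07 percentile points over the 49, against −0.251 over all shared regions, and 26 of the 49 were positive. The median gap between replicates was 7.63 points for FOXD2 and 8.09 for controls, larger than the median size of the group difference (6.18). Without 1 library the higher and lower counts were 20 and 16 (FOXD2 replicate 1), 24 and 16 (FOXD2 replicate 2), 20 and 12 (control replicate 1) and 20 and 15 (control replicate 2), of 52 to 57 regions. The genome shares under these looser definitions were 32.3 to 35.7% higher and 33.9 to 36.7% lower.

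GATA6 had the largest difference among the 49. Of its 5 shared regions, 3 ranked higher with FOXD2. At the start the percentiles were 54.7 and 52.4 in FOXD2 replicates 1 and 2 against 31.7 and 25.5 in control replicates 1 and 2, a difference of 24.9 points. That difference was at the 96.4 percentile of all shared regions, and as the largest of the 49 a high percentile was likely from the choice alone. At 22223635 to 22224181, 21107 bp past the higher-coordinate end and in an uncharacterised non-coding gene, the percentiles were 91.4 and 79.6 with FOXD2 and 66.5 and 61.3 in controls, with 81 and 53 summit tags in FOXD2 libraries against 49 and 40 in controls. At 22282153 to 22282890, 79625 bp past that end, they were 51.8 and 29.3 with FOXD2 and 27.9 and 12.9 in controls. FOXD2 replicate 2 (26 tags) and control replicate 1 (25 tags) were close at this last site. The other 2 shared regions of GATA6 did not separate the groups, with percentiles of 10.1 and 21.4 in FOXD2 libraries against 19.8 and 17.1 in controls at the inner site. At 22250471 to 22251138 they were 38.1 and 7.79 in FOXD2 libraries against 45.7 and 28.4 in controls.

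At CDX2 the start was the one region that ranked higher, at percentiles 52.9 and 50.8 in FOXD2 libraries against 38.4 and 35.8 in controls. The difference of 14.8 points stood at the 89.2 percentile of all shared regions, and tag numbers overlapped there as given above. The HNF4G start, at 77.3 and 71.8 with FOXD2 and 72.2 and 68.5 in controls, and the upstream HNF4A start, at 38.8 and 28.1 with FOXD2 and 33.3 and 37.9 in controls, did not separate the groups.

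Both shared regions of ISX, which lie in its flanks, ranked higher with FOXD2. The one at 35023828 to 35024631 stood at 53.4 and 55.4 with FOXD2 and 32.5 and 46.0 in controls, and that at 35150439 to 35150836 at 34.9 and 36.8 with FOXD2 and 21.5 and 13.4 in controls. The second and the strongest lost region of this window both lie in LINC01399, and they differ in direction. At GATA5, 3 of 8 ranked higher, at RPS21 and 2 at RBBP8NL, and 1 ranked lower. At HNF4A 2 ranked higher, at TTPAL and SERINC3, and the inner site past the downstream start ranked lower, at 31.8 and 36.6 with FOXD2 and 45.1 and 38.8 in controls. At GATA4 1 of 11 ranked higher, in the flank, and at CDX1 2 of 7 ranked lower, inside PDGFRB and CAMK2A.

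**Figure D4:**
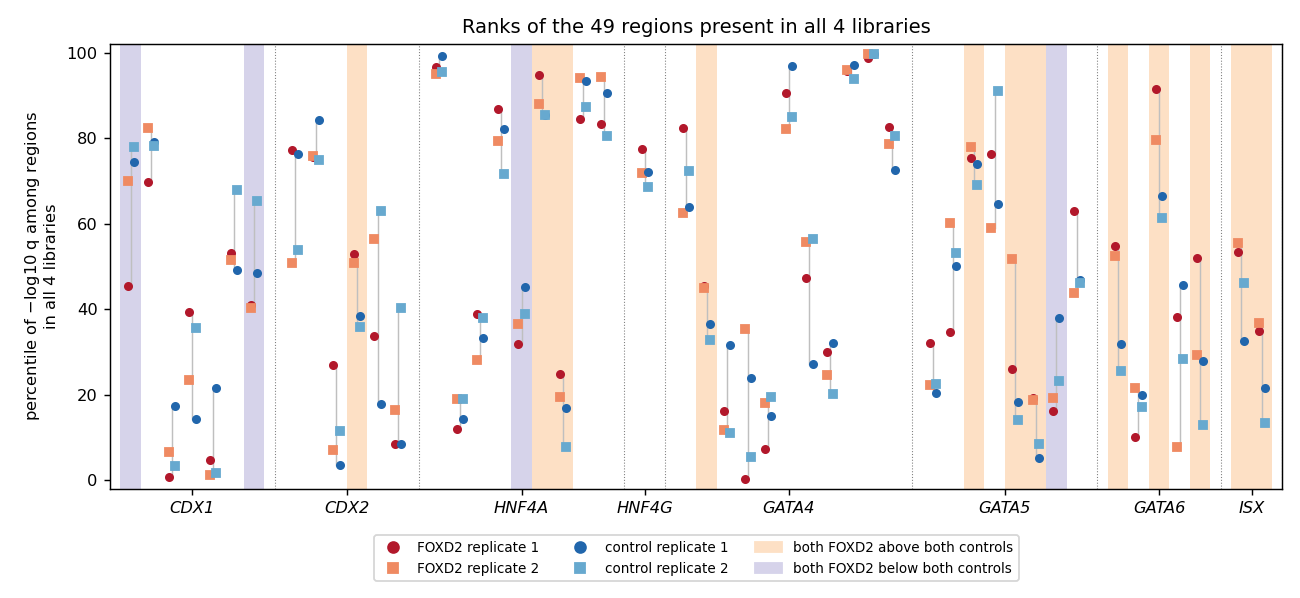
Percentile of −log10 q of the 49 regions present in all 4 libraries, ranked among all such regions of the genome, by gene and in genome order. Red and light orange points are FOXD2 libraries and blue points controls; orange bands mark the 12 regions where both FOXD2 points lie above both controls and violet bands the 4 with the reverse. GATA6 has 3 of 5 in orange and ISX has 2 of 2.

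Other factors of the gut and endoderm were counted in the same way. Of 34, 23 had an open start in all 4 libraries (67.6%, against 66.0% of all protein-coding genes) and 3 had none (NR5A2, NEUROD1 and NR1H4). Their windows held 602 regions with 25 gained (4.15%, genome 3.89%) and 39 lost (6.48%, genome 3.87%). Of their 216 shared regions, 18.5% ranked higher (genome 19.0%) and 19.0% lower (genome 19.6%) with FOXD2. EHF, an epithelial ETS factor gene, had 6 gained and 1 lost region and PRDM1 had 3 and 0. TCF7L2 had 1 gained and 6 lost, and ATOH1, the secretory lineage factor gene, PPARG and CREB3L3 had 0 and 3 each. ELF3 had 1 and 3, and NEUROD1 had 0 and 2. HES1, ASCL2 and VDR, with 0 and 2 each, and KLF5, with 2 and 0, tied with them in the size of the difference. Among the GATA genes of other lineages, GATA2 and GATA3 were open at the start in all 4 libraries. GATA2 had 0 gained and 3 lost regions, GATA1 had 0 and 1, and GATA3 had 0 of each.

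Intestinal genes known as targets of these factors were the last list. Of 30, 7 had an open start in all 4 libraries (23.3%, against 66.0% of all protein-coding genes), APOB, DPP4, CDHR2, CDHR5, APOA1, LGALS4 and SLC5A1. In 14 no library had one, as in 23.3% of all protein-coding genes. Among these 14 were the brush border sucrase gene SI, the fatty acid binding protein genes FABP1 and FABP2, the mucin gene MUC2 and the cadherin gene CDH17. CEACAM5, a cell adhesion gene of colon epithelium, had a start open only in the FOXD2 libraries, with a −log10 q of 7.22 and 9.99. Of all protein-coding genes, 0.436% had such a start. Their windows held 566 regions with 15 gained (2.65%, genome 3.89%) and 23 lost (4.06%, genome 3.87%). ALPI and LGALS4 had 0 gained and 3 lost regions each, and VIL1 and TFF3 had 0 and 2 each. Genes with a difference of 1 came next and were tied. Gained exceeded lost regions by 1 at DPP4, A1CF, CDHR5, MUC2, APOC3, APOA1, GUCY2C and CEACAM5. Lost exceeded gained by 1 at FABP1, LCT, MEP1A, MYO1A and TM4SF5.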

How the data were processed

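ATAC-seq was measured in 4 HCT116 libraries, 2 with FOXD2 and 2 controls, as grouped by the labels. The deposited files are peak lists, 1 per library and none pooled. The submitters' processing notes name MACS2 2.2.7.1, bedtools, Picard, Bowtie2 2.3.4.1 and cutadapt 3.4, with the hg38 build. What each did, its settings and any Tn5 shift of read ends are not given there. Each interval has the authors' fold over local background (a ratio), −log10 p, −log10 q (lowest 2.005 to 2.026) and a score derived from q that was not used.

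Intervals on chromosomes 1 to 22 and X were merged where they overlapped by 1 bp. Presence in a library was the readout. Summit tags were solved from the deposited fold and −log10 p, which were matched within 0.002 in 100% of 2000 intervals checked per library. Genes and starts came from RefSeq tables (GRCh38.p14). All 8 genes were named with every gained and lost region. From other lists, up to 8 genes with the largest difference of gained and lost regions, ties by genome order, were named, with any further ties. The members and lists were chosen with earlier results of these data known. Python 3.11.15, pandas 2.3.3, numpy 2.4.6 and scipy 1.17.1 were used, and merging and ranking were tested on simulated data. Clopper-Pearson intervals cover counting error only.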

Additional observations from a re-analysis of the deposited data

How the results depend on the processing

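Depth is unknown, and sites too weak to be called could not appear. Among the 2000 intervals checked per library, the lowest summit held 8 tags in replicate 1 of each group and 9 in replicate 2. The labels give both groups replicate numbers 1 and 2 but state no pairing, and the rank deviations of same-numbered libraries had a correlation of −0.00176 over the 39933 shared regions. With the replicate block, added after seeing the data, the pairs differed by −14 and −15 intervals (mean −14.5, exact sign-flip test, two-sided, p = 0.5, the smallest possible), and 14 regions ranked higher and 10 lower (genome 26.6% and 27.8%). The block leaves the definition of gained and lost regions as it is. The difference in intervals stayed below 0 in all 10 settings, the block included, from −25 to −2.5. Lost exceeded gained regions in 11 of 12 settings, and higher exceeded lower ranks in 11 of 11 besides the block.

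The smaller windows hold fewer regions by construction. With 20 kb of flank there were 56 regions, with 2 gained and 3 lost (genome 3.89% and 3.87%). Of the 21 shared ones, 2 ranked higher and 1 lower (genome 19% and 19.6%). With gene bodies only there were 29, with 0 gained and 1 lost, and of the 14 shared ones 2 ranked higher and 1 lower. In neither setting was the share ranking higher above that of the genome, unlike in the full windows. Lists of equal length left 1 gained region. Requiring a −log10 q of 5 or more in both libraries with the region left 1 gained and 5 lost. Leaving out 1 library gave 4 to 20 gained, 12 to 37 lost, 20 to 24 ranking higher and 12 to 16 lower, since fewer libraries define each class. Per gene, gained less lost regions turned for CDX2 (from −1 to 1) with intervals of −log10 q of 5 or more. For ISX they went from −1 to 0 with windows around the summits, and also where merging required more overlap than 1 bp. With FOXD2 replicate 2 left out, where 19.5% of all regions were gained and 5.93% lost, they turned for CDX2 (1), GATA6 (2) and ISX (2). Over the libraries left out they ran from −8 to 1 for CDX1 (0 with all libraries), from −2 to 1 for CDX2 (−1), from −3 to 3 for HNF4A (0), from −5 to −1 for HNF4G (−2), from −5 to 0 for GATA4 (−1), from −8 to 2 for GATA5 (0), from −2 to 2 for GATA6 (−1) and from −4 to 2 for ISX (−1). The cause was not tested. The number of open starts was 4 or 5 throughout, also with both gene ends for every gene, an alternative chosen after seeing the data.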
